A study of Mus musculus with 45 samples.

Results

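The hippocampus of mice that carried both the APPswe/PS1dE9 and the Tau P301L transgene and ate standard chow (A+T+/STD) was compared with that of wild-type mice on the same chow (AwTw/STD). These groups hold 4 and 6 mice, 10 of the 45 mice of the series, and the comparison covered all 15897 genes of the deposited table. The mice are female, of C57Bl/6J background, and each sample is the hippocampus of a separate animal. A+T+ mice came from crossing 2 heterozygous lines. One line expresses a chimeric mouse/human APP with the Swedish mutation and a human presenilin lacking an exon, both from a single transgene under the mouse prion protein (PrP) promoter. The other expresses human tau with the P301L change under the CaMKII promoter, which is active in excitatory forebrain neurons. AwTw mice are wild-type littermates. Standard chow (STD), with 5% fat by weight and 0% cholesterol, was given until the mice were killed at 13 months, while other mice of the same genotypes changed at 7 months to a typical Western diet (TWD) with 21% fat and 0.15% cholesterol. Values for the mice with only 1 of the transgenes (A+Tw and AwT+) and for TWD mice are given where they bear on the A+T+/STD mice.

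The APPswe/PS1dE9 transgene leads to deposits of β-amyloid peptide in the brain from mid-adulthood, and the mutant tau forms intraneuronal aggregates in the forebrain. Around amyloid deposits microglia, the resident macrophages of the brain, take on a state called disease-associated, in which the receptor Trem2 and its adaptor Tyrobp drive a program of lipid handling, phagocytosis and lysosomal digestion. Astrocytes near deposits become reactive and raise the intermediate filament protein Gfap.

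The authors' values are variance-stabilized, log2-like read counts from which batch had been removed, so a difference of 1 is close to a doubling for a gene with many reads and less than that for a gene with few. Per mouse, the median over genes lay between 8.19 and 8.30 in the 10 mice, and correlations across genes between pairs of them ran from 0.930 to 0.987. The exact number of reads per mouse is not known from such values, so errors come from the spread between mice alone. Batch, as the labels call it, was 0 for 2 A+T+/STD and 2 AwTw/STD mice and 1 for 2 A+T+/STD and 4 AwTw/STD mice. Markers of hippocampal neurons were present in every mouse, with a mean over 18 genes of 9.82 to 9.93 in A+T+/STD and 9.89 to 10.20 in AwTw/STD mice. The mice did not hold equal amounts of choroid plexus, the epithelium that makes cerebrospinal fluid and lies against the hippocampus. Ttr, the transthyretin that this epithelium secretes, was 17.20, 16.50, 15.93 and 16.73 in the A+T+/STD mice and 15.89, 16.64, 10.03, 9.19, 12.28 and 10.01 in AwTw/STD mice 1 to 6. Thus all 4 A+T+/STD mice but only AwTw/STD mice 1 and 2 had high choroid plexus signal, and the groups of genes below are given also with the mean of 15 standardized choroid plexus genes as a covariate where this changed which genes passed. The part of choroid plexus in the other differences was not tested beyond this.

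The transgene check came first. App, the mouse gene whose transcript the chimeric transgene resembles, was 15.62, 15.41, 15.29 and 15.41 in A+T+/STD mice and between 14.29 and 14.62 in AwTw/STD mice (median 14.45). Prnp, whose promoter drives that transgene, was 14.66 to 14.83 against 13.54 to 13.89. Neither gene overlapped between the groups, and the log2 fold changes were 1.00 ± 0.10 (SE, limma adjusted p = 8.35e-09) and 1.04 ± 0.10 (limma adjusted p = 6.57e-10). Mapt, the mouse tau gene, and Camk2a, whose promoter drives the tau transgene, did not separate the groups (log2 fold change -0.01 and -0.17, limma adjusted p = 0.967 and 0.563). Reads had been assigned to mouse transcripts, so human tau was not counted as such and Mapt does not check the tau label.

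**Figure D1:**
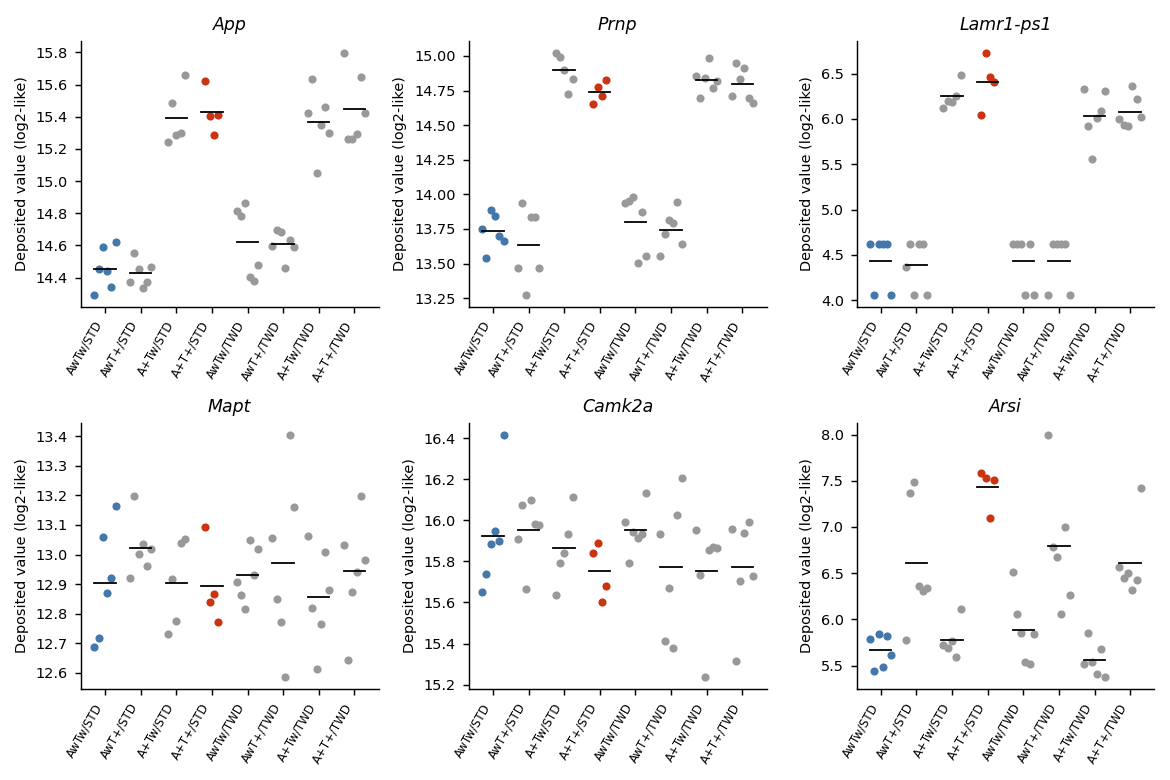
Deposited log2-like values of 6 genes (vertical axes, each with its own range) in every mouse of the 8 genotype-by-diet groups (horizontal axes); each point is a mouse, black lines are group means, A+T+/STD is red and AwTw/STD blue. App, Prnp and Lamr1-ps1 are high in the 4 groups with the APPswe/PS1dE9 transgene, Arsi lies between 7.09 and 7.58 in the 4 A+T+/STD mice and reaches 7.99 in 1 AwT+/TWD mouse, and Mapt and Camk2a show no such split.

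Of the 15897 genes, 210 passed an adjusted p of 0.05 between A+T+/STD and AwTw/STD mice (1.32% of the genes tested), 194 of them higher in A+T+/STD (1.22%) and 16 lower (0.101%). An unadjusted limma p under 0.05 was found for 2278 genes (14.3%). The 194 higher genes had a median log2 fold change of 0.78 and the 16 lower genes one of -0.60, and over all genes tested the median was -0.01. The genes that rose included many of microglia and of lysosomes, with Gfap as the leading astrocyte gene. Of the 194, 89 were members of any of the gene lists used here, while these lists hold 638 of the 15897 genes tested. The lists were chosen with earlier results of these data known, so their share among called genes is not independent of the data. The genes that fell were a short and mixed set, led by the desmosomal gene Dsp, with 1 list member among 16. In 186 of the 194 higher and 13 of the 16 lower genes all 4 A+T+/STD mice lay outside the range of the 6 AwTw/STD mice, while over all genes 4.31% did so (2.82% above and 1.49% below). Among the higher genes 51 had a log2 fold change above 1, but only 3 one above 2, while Dsp alone was below -1. All 210 had the same direction in the mice of batch 0 alone and in those of batch 1 alone, where 35 and 32 of them passed the threshold. Since the 210 genes were chosen by the values of these same mice, neither the lack of overlap nor the shared direction is independent of the choice. The count fell to 108 without A+T+/STD mouse 2 and to 132 without A+T+/STD mouse 1, and with the choroid plexus covariate it was 119.

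Cst7, which encodes cystatin F, an inhibitor of cathepsins inside lysosomes, changed most among the genes that passed. On chr2:150570415-150578944 (GRCm38, plus strand), it was 9.70, 9.01, 8.68 and 9.36 in the 4 A+T+/STD mice, against a lowest value of 4.75, a median of 5.13 and a highest value of 5.37 in AwTw/STD mice. Even the lowest A+T+/STD mouse stood more than 3 units above the highest wild-type mouse, and the log2 fold change was 4.17 ± 0.20 (SE, limma adjusted p = 1.57e-18). Itgax, the integrin subunit CD11c of dendritic cells and of plaque-associated microglia, was 7.78, 7.72, 7.16 and 7.64 against 4.92 to 5.86 (median 5.35), a log2 fold change of 2.28 ± 0.21. A+T+/STD mouse 1 was highest and mouse 3 lowest of the 4 for both genes.

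Trem2, the lipid-sensing receptor of microglia, was 9.36, 9.31, 9.05 and 9.07 in A+T+/STD mice and 7.07 to 7.57 in AwTw/STD mice (median 7.21). Tyrobp, its signalling adaptor, was 10.19, 9.94, 9.87 and 9.77 against 7.83 to 8.58 (median 8.06). Receptor and adaptor thus rose by like amounts, with log2 fold changes of 1.98 ± 0.21 and 1.88 ± 0.20, and neither overlapped between the groups. The further members of the Trem2 signalling list moved less. All 19 measured members were above 0, with a median of 0.53, and 9 passed the threshold, among them the phosphatase Ptpn6 (1.04), the adaptor Pik3ap1 (0.81) and the exchange factor Vav1 (0.59). The kinase Syk, which binds phosphorylated Tyrobp, had a log2 fold change of 0.42 (adjusted p = 0.164), the phospholipase Plcg2 one of 0.33 (adjusted p = 0.211) and the lipid phosphatase Inpp5d one of 0.63 (adjusted p = 0.0774). With the choroid plexus covariate Syk and Inpp5d did pass (0.58 and 0.76, limma adjusted p = 0.016 and 0.0364), Plcg2 did not, and 3 of the 9 no longer passed, Vav1 among them (limma adjusted p = 0.121), which left 8 of the 19.

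Of the 29 measured genes of the disease-associated microglia list 13 rose and none fell, with a median log2 fold change of 0.62. Besides Cst7 and Itgax they included the lysosomal protein Cd68 (1.81 ± 0.18), the lectin Clec7a, known as Dectin-1 (1.80 ± 0.25), the lysozyme gene Lyz2 (1.59 ± 0.21), the chemokine Ccl6 (1.47 ± 0.21), the membrane glycoprotein Gpnmb (1.43 ± 0.23) and the surface antigen Cd52 (1.41 ± 0.17). Clec7a was 7.11, 6.77, 7.00 and 7.53 in A+T+/STD mice, above every AwTw/STD mouse (4.35 to 5.74). The other 16 measured genes of the list did not pass. Among them, the apolipoprotein Apoe had a log2 fold change of 0.50 (limma adjusted p = 0.219), the lipase Lpl one of 0.36 (limma adjusted p = 0.271) and the ferritin chain Fth1 one of 0.28. Spp1, the secreted phosphoprotein osteopontin, had 1.35, yet its values of 8.18 to 9.24 overlapped those of AwTw/STD mice (6.56 to 8.21), and its adjusted p was 0.0637.

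As a mean over these 29 genes, the list stood at 9.38 to 9.53 in the A+T+/STD mice and 8.49 to 8.71 in the AwTw/STD mice, a narrow spread in both groups. The levels by mouse show this beside the choroid plexus list, whose spread among wild-type mice was far wider, from 6.37 to 9.69. With the choroid plexus covariate 11 of the 29 passed and the median was 0.53. In bulk tissue, more cells of a type and more RNA per cell cannot be told apart, which touches this and every cell type list that follows.

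**Figure D2:**
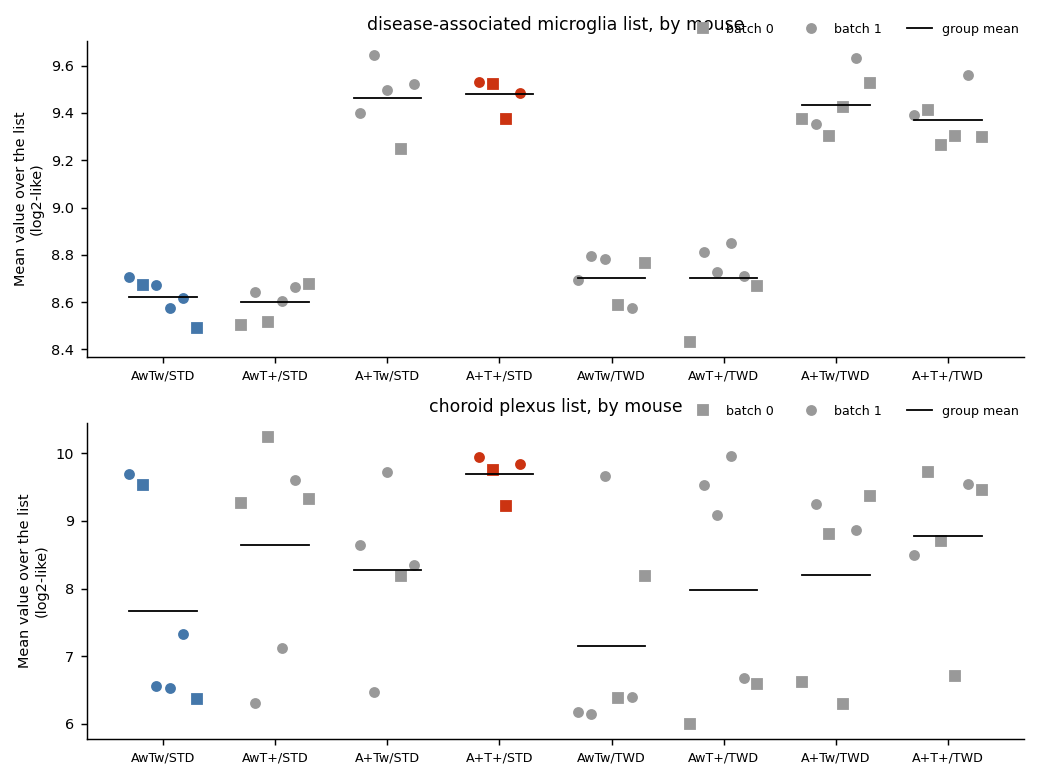
Mean deposited log2-like value over the 29 measured disease-associated microglia genes (top) and over 15 choroid plexus genes (bottom) in every mouse of the 8 groups; each point is a mouse, squares are batch 0, circles batch 1, black lines group means. The microglial list separates the groups with the APPswe/PS1dE9 transgene from those without, whereas the choroid plexus list is high in all 4 A+T+/STD mice (9.21 to 9.94) and in 2 of 6 AwTw/STD mice.

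Genes of resting, homeostatic microglia were mostly above 0, though unevenly. Of 24 measured, 21 were above 0 and 3 below, with a median of 0.44, and 6 passed, all higher. The list mean was 9.35 to 9.47 in A+T+/STD mice and 8.95 to 9.08 in AwTw/STD mice. Fcrls, an Fc receptor-like scavenger gene, was 9.62, 9.47, 9.59 and 9.45 against 8.22 to 8.76, a log2 fold change of 1.04 ± 0.15. The growth factor receptor Csf1r (0.75 ± 0.13), the lectin Siglech (0.76 ± 0.15), the fractalkine receptor Cx3cr1 (0.51 ± 0.12) and the secreted Olfml3 (0.69) rose as well. In contrast, the purinergic receptor P2ry12, which senses nucleotides from injured cells, was 8.61, 7.99, 8.34 and 8.62 in A+T+/STD and 8.09 to 8.57 in AwTw/STD mice, a difference of 0.04 ± 0.31. The related receptor P2ry13 had 0.01, Gpr34 had -0.42 and Tmem119 had 0.44 (adjusted p = 0.263). All 26 genes shared by microglia and macrophages in general were above 0, with a median of 0.68, and 15 passed, for example the integrin Itgb2 (1.22 ± 0.18), the cathepsin Ctss (1.19 ± 0.12), the lysosomal membrane protein Laptm5 (1.17 ± 0.15) and Ly86, a partner of the Toll-like receptor family (0.98 ± 0.15). The 3 lists had 11, 6 and 11 genes past the threshold when the choroid plexus score was a covariate, in the order disease-associated, homeostatic and general. Markers of other leukocytes gave no such picture, since none of 5 measured lymphocyte genes (median -0.12) and none of 6 genes of perivascular macrophages (median 0.28, with 0.65 in batch 0 and 0.01 in batch 1) passed.

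Among 16 measured transcription factors of the microglial list 4 rose. Irf8, needed for microglial development, was 7.89, 8.03, 7.75 and 8.09 against 6.81 to 7.11, and its log2 fold change was 1.00 ± 0.12. Irf5 and Cebpa had 1.00 and 0.73. The rest of this list spread on both sides of 0, from -0.44 upwards, with a median of 0.20.

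Microglial genes are commonly bound by the Ets factor PU.1, whose sites hold the core GGAA, and the promoters of the higher genes were searched for 1 such word, GAGGAAGT, on both strands in RefSeq windows of 250 bases before to 50 bases after each transcript start (GRCm38.p6). It occurred in 19 of 177 windows of the higher genes (10.7%), in 0 of 10 of the lower genes, and in 412 of 14931 in all (2.76%). These windows belong to 147 of the 194 higher genes, 10 of the 16 lower genes and 11616 of the 15897 genes tested. The remaining genes were not part of the search or of its background. Among higher genes on the 3 microglial lists, 3 of 29 windows held the word (10.3%), a share like that of all higher genes. Spi1, the gene that encodes PU.1, overlapped between the groups, with 6.61 to 7.43 in A+T+/STD and 6.52 to 7.11 in AwTw/STD mice. The windows of Ctss, of the complement gene C1qc and of the B cell and microglial lectin Cd72 are shown because they hold the word and their genes rose, and that of Cst7 because it changed most among the genes that passed and holds no exact match. Each window is written 5′ to 3′ along the gene, and capitals mark the word as read on that strand, here its reverse complement.
Ctss, chr3:95526536-95526835, strand plus: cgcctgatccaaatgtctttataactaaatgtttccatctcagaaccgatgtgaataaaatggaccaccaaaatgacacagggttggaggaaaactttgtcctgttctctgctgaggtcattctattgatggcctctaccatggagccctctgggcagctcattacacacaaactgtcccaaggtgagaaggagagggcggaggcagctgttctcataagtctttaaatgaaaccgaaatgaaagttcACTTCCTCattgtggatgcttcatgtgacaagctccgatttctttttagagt
C1qc, chr4:136892865-136893164, strand minus: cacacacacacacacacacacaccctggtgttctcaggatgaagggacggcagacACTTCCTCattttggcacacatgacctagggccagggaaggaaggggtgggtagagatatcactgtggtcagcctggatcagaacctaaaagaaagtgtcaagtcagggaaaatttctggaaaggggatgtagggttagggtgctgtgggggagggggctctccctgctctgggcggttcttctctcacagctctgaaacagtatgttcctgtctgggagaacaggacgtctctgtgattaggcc
Cd72, chr4:43454577-43454876, strand minus: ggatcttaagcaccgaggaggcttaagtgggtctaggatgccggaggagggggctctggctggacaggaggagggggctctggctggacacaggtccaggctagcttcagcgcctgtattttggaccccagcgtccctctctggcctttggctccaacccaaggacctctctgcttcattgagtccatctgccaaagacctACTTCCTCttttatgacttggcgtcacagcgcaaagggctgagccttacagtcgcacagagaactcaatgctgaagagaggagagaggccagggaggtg
Cst7, chr2:150570165-150570464, strand plus: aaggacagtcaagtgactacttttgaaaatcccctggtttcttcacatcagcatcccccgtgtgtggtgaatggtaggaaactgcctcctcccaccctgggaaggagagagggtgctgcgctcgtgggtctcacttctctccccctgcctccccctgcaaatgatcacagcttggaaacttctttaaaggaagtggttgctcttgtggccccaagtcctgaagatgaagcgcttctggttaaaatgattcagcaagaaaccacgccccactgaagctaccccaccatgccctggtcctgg
A match is a description of these letters, and binding of a factor was not measured.

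The complement list, innate immune proteins that tag synapses and debris for uptake, had 12 of 13 measured members above 0, though not all passed. The 3 chains of C1q, the starter of the classical pathway, rose together. C1qa was 11.36, 11.30, 11.06 and 11.07 in A+T+/STD mice and 9.69 to 10.38 in AwTw/STD mice (log2 fold change 1.28 ± 0.22), with C1qc at 1.31 ± 0.22 and C1qb at 1.25. C4b, the component cleaved next, was 11.54, 11.41, 11.24 and 11.89 against 9.64 to 10.28, a log2 fold change of 1.58 ± 0.23 (limma adjusted p = 1.27e-05). C3, on which all complement pathways converge, overlapped between the groups, with 6.89 to 7.36 in A+T+/STD and 5.82 to 7.21 in AwTw/STD mice, and did not pass (0.72 ± 0.33, adjusted p = 0.306). The proteases C1ra (0.32) and C1s1 (0.21) did not pass either. In all 5 of 13 members rose, counting Itgax, and the median was 0.72 (0.85 in batch 0 and 0.45 in batch 1). C4b and Lyz2 have near-identical copies in the mouse genome, as do the class I genes below, and reads shared with a copy can move between copies in such estimates.

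Receptors that read antibodies and microbial products rose in part. Of 6 genes listed with Fc receptors 4 rose, and the list median was 0.90. They were the inhibitory receptor Fcgr2b (1.06 ± 0.16), the activating receptor Fcgr3 (0.98 ± 0.13), the signalling chain of activating receptors Fcer1g (0.93 ± 0.15) and Cd72 (0.88 ± 0.18). Of 14 Toll-like receptors and partners (median 0.33, and 0.58 in batch 0) 4 rose: Cd14, which hands lipopolysaccharide to Tlr4 (1.41 ± 0.15), Ly86, Tlr2 (0.80 ± 0.17) and the trafficking protein Unc93b1 (0.70 ± 0.15). Cd14 was 7.19, 7.55, 7.32 and 7.38 against 5.70 to 6.24, without overlap. Tlr2 and Unc93b1 lost the threshold with the choroid plexus covariate (limma adjusted p = 0.0509 and 0.0689).

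Chemokines were uneven too. Ccl3, an inflammatory chemokine, was 6.89, 6.85, 6.34 and 6.95 in A+T+/STD mice and 4.86 to 5.34 in AwTw/STD mice, a log2 fold change of 1.63 ± 0.17, and its relative Ccl4 rose less (0.82 ± 0.16). Together with Ccl6, Cxcl16 (0.86), the receptor Csf3r (0.89 ± 0.15), the receptor chain Il10ra (0.56) and Tgfb1 (0.87), 7 of 18 members rose. Il18, Cxcl12 and Cx3cl1 had -0.43, -0.21 and -0.17, and the list median was 0.27 (0.42 in batch 0 and 0.25 in batch 1). Cxcl16 lost the threshold with the choroid plexus covariate (limma adjusted p = 0.115).

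Antigen presentation genes were all above 0 (18 of 18, median 0.64), but only 4 passed. These were the MHC class I heavy chains H2-D1 and H2-K1, the class I-like H2-M3 and Tapbp, which loads peptide on class I molecules. H2-D1 was 10.43, 10.45, 10.00 and 10.02 against 9.05 to 9.59, a log2 fold change of 1.00 ± 0.24. Cd74, the invariant chain of class II, had 1.58 ± 0.54, larger but with a wide spread among AwTw/STD mice from 6.48 to 8.19 (adjusted p = 0.17). None of the 18 passed when the choroid plexus score was a covariate, and the median was then 0.45. Of 22 interferon-stimulated genes 20 were above 0, with a median of 0.40, and only Irf9 passed (0.75 ± 0.16). This median was 0.65 in batch 0, 0.24 in batch 1 and 0.22 with the covariate.

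Lysosomal genes rose in part. Of 32 enzymes and membrane proteins 15 rose and none fell, with a median of 0.40. The aspartic protease Ctsd was 14.19, 14.03, 13.84 and 13.76 in A+T+/STD mice and 12.22 to 13.07 in AwTw/STD mice (1.42 ± 0.20), and the carboxypeptidase Ctsz was 11.05, 10.97, 10.62 and 10.66 against 9.13 to 9.99 (1.37 ± 0.21). Ctss, a cathepsin of antigen-presenting cells, had an even smaller spread with 11.01 to 11.20 against 9.71 to 10.18. Ctsh (0.89), the sterol carrier Npc2 (0.87), progranulin (Grn, 0.79), Man2b1 (0.78), Naglu (0.77), Ctsl (0.76), Gusb (0.75 ± 0.12) and Hexa (0.72) also rose. Npc1, the membrane partner of Npc2 in cholesterol export, was at -0.11, the acid lipase Lipa at -0.10, the thioesterase Ppt1 at -0.15, Scarb2 at -0.16 and Lamp2 at 0.27, all without passing. Tmem106b had the lowest value of the list, -0.53 ± 0.38. With the choroid plexus covariate 10 of the 32 passed, with a median of 0.27.

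Astrocytes showed 1 large change. Gfap was 14.54, 14.30, 14.15 and 14.71 in A+T+/STD mice and 12.51, 12.79 and 12.91 (lowest, median, highest) in AwTw/STD mice, a log2 fold change of 1.70 ± 0.13 (limma adjusted p = 3.73e-12). The filament gene Vim (1.09 ± 0.23), the calcium-binding S100a6 (1.12 ± 0.23) and the asparaginase Aspg (0.92 ± 0.20) rose too, 4 of 19 reactive astrocyte genes with a median of 0.55. The acute-phase serpin Serpina3n had 0.73 ± 0.20 without overlap between the groups but an adjusted p of 0.061, and Lcn2 had 0.24. Vim and Aspg lost the threshold with the choroid plexus covariate, while Gfap was 1.74. None of 16 resting astrocyte genes passed (median 0.16), and the same was true of 18 oligodendrocyte genes (median 0.16), 17 endothelial genes (median 0.10) and 15 genes of mural cells and fibroblasts (median 0.60, and 0.26 with the covariate). The mural and fibroblast median was 1.36 in batch 0 and 0.23 in batch 1.

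**Figure D3:**
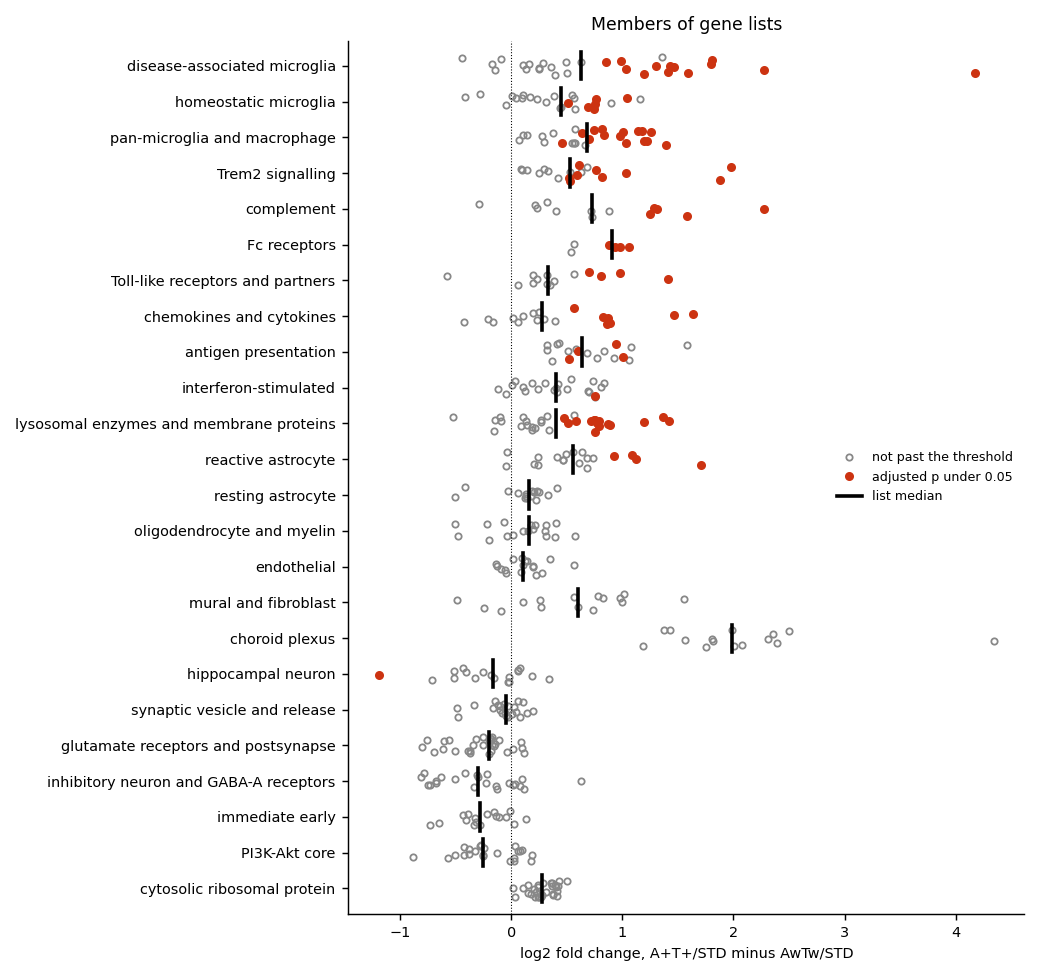
Log2 fold change of each measured gene between A+T+/STD and AwTw/STD mice (horizontal axis) for 24 gene lists (rows; vertical scatter within a row has no meaning); red points passed an adjusted p of 0.05, open grey points did not, black bars are list medians. Red points lie in the microglial, immune, lysosomal and reactive astrocyte rows, with Dsp at -1.19 as the only one to the left, and all 15 choroid plexus genes lie between 1.19 and 4.34 with none past the threshold.

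In the choroid plexus list the differences were large but not called. All 15 genes were above 0, with a median of 1.98 (1.50 in batch 0, 2.20 in batch 1), larger than that of any microglial list, yet none passed, and AwTw/STD mice 1 and 2 were within the range of list levels of the A+T+/STD mice. Folr1, the folate receptor of this epithelium, had 2.50 ± 0.86 (adjusted p = 0.177). With the mean of these genes as a covariate, 115 of the 210 genes kept the threshold, 111 of the higher and 4 of the lower, and 4 further genes passed, which makes 119 in all (0.749%). All 210 kept their direction, and the medians went from 0.78 to 0.71 and from -0.60 to -0.51. The 10 higher genes drawn in the plot of mice, which are not the 10 with the largest changes, all passed with the covariate. Whether tissue sampling differed with genotype was not tested.

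**Figure D4:**
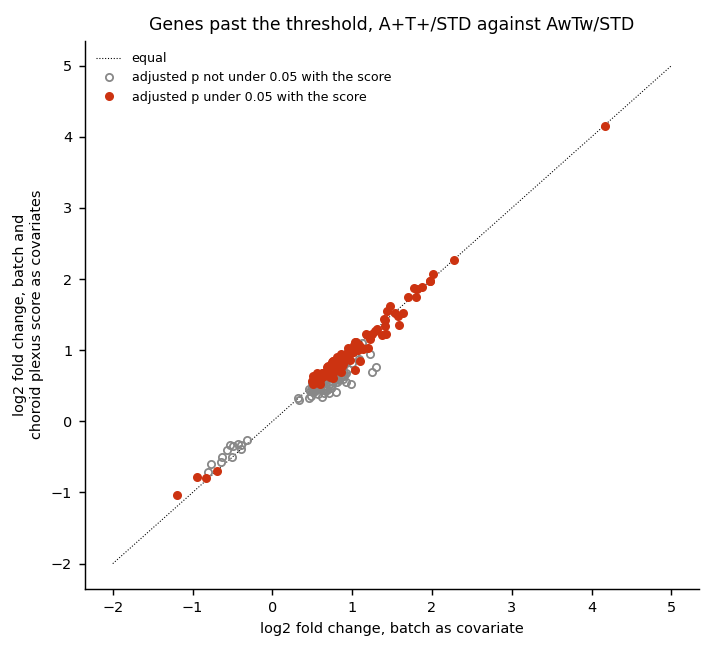
Log2 fold change of the 210 genes that passed between A+T+/STD and AwTw/STD mice, with batch as the covariate (horizontal axis) and with batch and the choroid plexus score (vertical axis); red points passed an adjusted p of 0.05 with the score (115 genes), open points did not, and the dotted line marks equal values. The genes with the largest changes, such as Cst7 at 4.17 and 4.16, lie on the line, and most open points are genes with small changes.

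The 16 lower genes do not form a single pathway, and 12 are named genes while 4 are predicted genes. Dsp, the desmosomal plaque protein desmoplakin and a marker of dentate granule cells in this tissue, lies on chr13:38151294-38198577. It was 8.44, 8.18, 7.90 and 7.90 in A+T+/STD mice and 8.85 to 10.04 (median 9.17) in AwTw/STD mice, and fell by 1.19 ± 0.24 on the log2 scale (limma adjusted p = 0.00304). Prox1, another granule cell gene, was also lower in all 4 A+T+/STD mice than in any AwTw/STD mouse but did not pass (-0.41 ± 0.22, adjusted p = 0.374), and C1ql2, a synaptic organizer of granule cells, had 0.33. Of 18 hippocampal neuron genes Dsp alone passed, and the list median was -0.17. It was -0.31 in batch 0, close to 0 in batch 1 (9 of 18 genes above 0) and -0.04 with the choroid plexus covariate.

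Rtl3, a gene derived from a retrotransposon, was 5.72, 5.63, 5.71 and 5.27 against 6.05 to 6.85, a log2 fold change of -0.94 ± 0.19. Adcy1, the calmodulin-stimulated adenylyl cyclase of neurons, was 12.59, 12.38, 12.68 and 12.55 against 12.94 to 13.50 (-0.77 ± 0.19). The homeobox gene Onecut1 was 4.98, 5.14, 5.07 and 5.01 against 5.42 to 5.95 (-0.70 ± 0.15). These 3 genes did not overlap between the groups, nor did Scn3b, a β subunit of sodium channels (-0.63 ± 0.17), the transcription factor Bhlhe22 (-0.50 ± 0.13), the BH3-only apoptosis gene Hrk (-0.43 ± 0.11), Yaf2, a partner of Polycomb proteins (-0.40 ± 0.10), Sidt1 (-0.39 ± 0.09) and the adhesion molecule Dscam (-0.31 ± 0.08). Doc2b, a calcium sensor of transmitter release (-0.53 ± 0.14), and BC052040 (-0.51 ± 0.13) each had 1 A+T+/STD mouse within the range of AwTw/STD mice.

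The lower set was less firm than the higher one, with 2 genes called lower in batch 0 alone and 0 in batch 1 alone by limma. Without A+T+/STD mouse 2, 5 genes passed in this direction, 4 of them from the 16, and without AwTw/STD mouse 2, 25 did, 13 of them from the 16. With the choroid plexus covariate Dsp, Rtl3 and Onecut1 passed among the named genes (limma adjusted p = 0.0318, 0.0381 and 0.0154), and the other 9 did not (0.083 to 0.392).

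**Figure D5:**
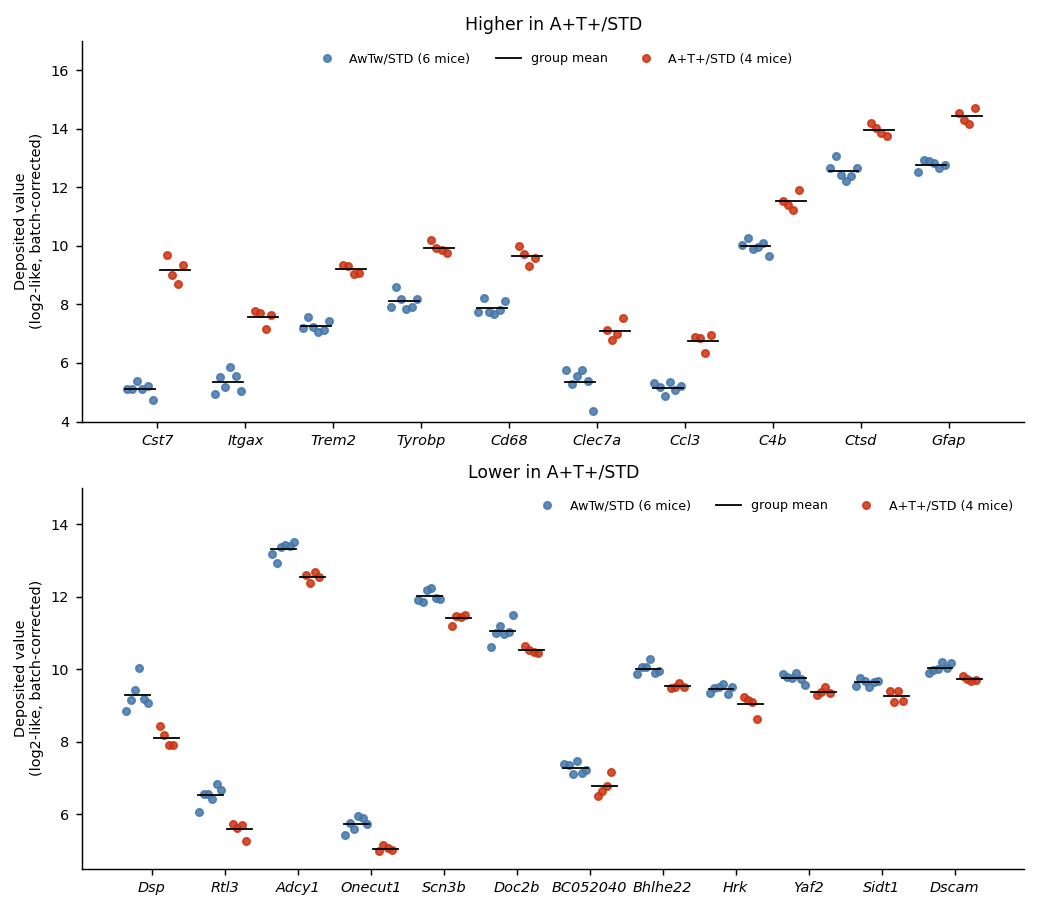
Deposited log2-like, batch-corrected value (vertical axes) of 10 genes higher (top) and 12 genes lower (bottom) in A+T+/STD mice; each point is a mouse, blue for the 6 AwTw/STD and red for the 4 A+T+/STD mice, and black lines are group means. In the top panel no red point lies within the blue range, and in the bottom panel only Doc2b and BC052040 each show 1 red point above the lowest blue one.

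Synaptic and signalling genes of neurons lay mostly a little below 0 without passing. None of 29 glutamate receptor and postsynaptic genes passed, 25 were below 0, and the median was -0.21. The NMDA receptor subunit Grin2a was 10.87, 10.68, 11.25 and 11.36 against 11.37 to 12.34, a log2 fold change of -0.81 ± 0.31 (adjusted p = 0.227). The list of interneuron genes and GABA-A receptors had a median of -0.30, and its opioid peptide Penk went the other way with 0.63 ± 0.19 (adjusted p = 0.0889). Of 17 immediate early genes, which follow neuronal activity, 15 were below 0, with a median of -0.29 and Npas4 at -0.65 ± 0.20 (adjusted p = 0.106). For 22 genes of synaptic vesicles and release the median was -0.05, and for 23 genes of the PI3K-Akt core, the kinase cascade downstream of growth factor receptors, it was -0.26. With the choroid plexus covariate these medians were -0.10, -0.27, -0.13, 0.08 and -0.17, in the order given, and in the same order they were -0.32, -0.22, -0.32, -0.17 and -0.12 in batch 0 and -0.20, -0.22, -0.15, -0.02 and -0.23 in batch 1. All 30 cytosolic ribosomal protein genes were above 0 with none passing (median 0.27). The median was 0.06 in batch 0 (22 of 30 above 0), 0.36 in batch 1 and -0.06 on TWD, and here AwTw/STD mouse 2 stood apart from the other wild-type mice with a list mean of 11.86 against 10.97 to 11.30. Of 18 lipid transport genes 1 passed, Ch25h, which makes an oxysterol (0.57 ± 0.15) and did not pass with the covariate (limma adjusted p = 0.113). Proliferation and cell cycle genes, measured here in whole hippocampus, had a median of -0.19, and none of 13 passed. Which cells their reads came from was not tested.

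The next question was which of these differences the mice with only 1 transgene lacked. Between A+T+/STD and A+Tw/STD mice, which differ by the tau transgene, limma called 1 gene (0.00629% of those tested), while 617 had an unadjusted p under 0.05 (3.88%). This gene was Arsi, which encodes an arylsulfatase. It was 7.58, 7.53, 7.09 and 7.51 in A+T+/STD mice and between 5.59 and 6.11 in the 5 A+Tw/STD mice, a log2 fold change of 1.68 ± 0.28 (limma adjusted p = 0.00894), and it was not called without A+T+/STD mouse 1, 2 or 4 or without A+Tw/STD mouse 4. AwTw/STD mice were at 5.44 to 5.84, and the log2 fold change against them was 1.78 ± 0.27. Mice with tau alone spread over most of this range, from 5.78 to 7.49 with a median of 6.35, and A+T+/TWD mice were at 6.32 to 7.42 with a median of 6.47, which overlaps A+T+/STD through 1 mouse. AwT+/TWD mice were at 6.05 to 7.99, so 1 of them exceeded all A+T+/STD mice. Arsi lies on chromosome 18 in the same orientation as Camk2a, and ends 7056 bases before it, and the CaMKII promoter drives the tau transgene. The nearby genes Tcof1 and Slc6a7 had differences of 0.21 and 0.03 between A+T+/STD and AwTw/STD mice. Whether Arsi reads come from the transgene or its site was not tested. Of the 12 named lower genes none passed between A+T+/STD and A+Tw/STD mice. Rtl3 came nearest with -0.83 ± 0.20 (limma adjusted p = 0.518), and Dsp had -0.78 ± 0.25 (limma adjusted p = 0.999). Since these genes were chosen by the values of the same 4 mice, such differences are not independent of the choice.

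Between A+T+/STD and AwT+/STD mice, which differ by the APPswe/PS1dE9 transgene, 151 genes passed (0.95%), 146 higher (0.918%) and 5 lower (0.0315%), and 1137 had an unadjusted p under 0.05 (7.15%). Without A+T+/STD mouse 2 the count was 93. With the mice of the compared groups alone it was 284, of which 230 were higher and 54 lower, so the number of lower genes depended on which mice entered the fit. The 5 with the smallest adjusted p were Cst7 (4.18 ± 0.20), Lamr1-ps1 (2.02 ± 0.15), Gfap (1.60 ± 0.13), Prnp (1.11 ± 0.10) and Ctss (1.29 ± 0.12). Dsp (-1.04) and Rtl3 (-0.79) were among the 5 lower genes, and so was Npas4 (-0.90, limma adjusted p = 0.00848). The test of whether both transgenes together differ from the sum of their single differences called 0 genes in limma, with 298 at an unadjusted p under 0.05 (1.87%).

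Against the same AwTw/STD mice, limma called 147 genes in A+Tw/STD mice (0.925%, with 5.66% at an unadjusted p under 0.05) and 0 genes in AwT+/STD mice, where 380 had an unadjusted p under 0.05 (2.39%). Side by side, the leading genes had like log2 fold changes in A+T+/STD and A+Tw/STD mice and values near 0 in AwT+/STD mice. Cst7 had 4.17, 4.31 and -0.01, Trem2 had 1.98, 1.95 and 0.04, and Gfap had 1.70, 1.50 and 0.10. Dsp had -1.19, -0.41 and -0.15, Rtl3 had -0.94, -0.12 and -0.16, and Adcy1 had -0.77, -0.34 and -0.07. Over the 29 disease-associated microglia genes the medians were 0.62, 0.43 and -0.02, over the 18 antigen presentation genes 0.64, 0.47 and 0.11, and over the 15 choroid plexus genes 1.98, 0.53 and 0.94. Directly between A+T+/STD and A+Tw/STD mice, the medians of these lists were 0.04, 0.22 and 1.46, and 0 of their genes passed. The choroid plexus list thus differed between the groups as well, and none of its genes passed in any of the 3 comparisons with AwTw/STD mice.

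Lamr1-ps1, a processed pseudogene of the laminin receptor on chr2:131904086-131904959, followed Cst7 and Itgax in size among the genes called. It was 6.04, 6.73, 6.46 and 6.40 in A+T+/STD mice and only 4.06 or 4.62 in AwTw/STD mice, values that are tied within a batch. In the whole series, 23 of 24 mice without the APPswe/PS1dE9 transgene were at the lowest value of their batch, and none of the mice with it. The pseudogene ends 4968 bases before Prnp, in the same orientation, and the PrP promoter drives this transgene. Rassf2 and Slc23a2, which follow Prnp on that chromosome, had differences of 0.15 and 0.06, and the source of the Lamr1-ps1 reads was not tested.

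The same genotypes on TWD are other mice, so they repeat the comparison with the higher-fat chow. With 6 mice in each group, 116 genes passed there (0.73%, and 7.76% at an unadjusted p under 0.05), 110 of them higher in A+T+/TWD than in AwTw/TWD mice (0.692%) and 6 lower (0.0377%), and 87 genes were called in the same direction on both diets, which is 41.4% of the STD list and 75% of the TWD list. All 87 were higher genes. None of the 16 lower genes passed on TWD, and their median there was -0.17, although 15 of them were below 0. Dsp had -0.15 on TWD, where A+T+ mice ranged from 8.00 to 9.30 and AwTw mice from 8.67 to 9.25, and Rtl3 had -0.30. Of the higher genes named above Cst7 had 3.91, Itgax 2.30, Clec7a 1.80, Ccl3 1.62, Trem2 1.47, Gfap 1.41, Ctsd 0.93 and C1qa 0.86, all past the threshold. C1qb (0.78, adjusted p = 0.078), C1qc (0.74, adjusted p = 0.078), Vim (0.48, adjusted p = 0.584) and H2-D1 (0.55, adjusted p = 0.454) did not pass. The test of the difference between the diets called 0 genes in limma, with 1001 at an unadjusted p under 0.05 (6.3%), so a gene that passed on 1 diet alone is not shown to differ between them. AwTw/TWD mice varied more than AwTw/STD mice in several of these genes, for instance C1qc with 9.53 to 10.94 against 9.30 to 9.95, and Ctsd with 12.49 to 13.83 against 12.22 to 13.07.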

How the data were processed

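Hippocampal RNA (poly(A)-selected, stranded, single reads) was sequenced in 45 mice. Per the study's methods, the authors trimmed reads with Trimmomatic 0.38, removed ribosomal and mitochondrial reads with Bowtie2 2.2.3, quantified mouse transcripts with kallisto 0.44.0 (mm10), kept genes with a mean count above 10, applied the variance-stabilizing transformation of DESeq2 1.22.2 and removed batch with limma 3.38.3. The deposited values are therefore log2-like, and not counts, so no count model was used and the exact depth of each mouse is unknown.

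A linear model with the 8 genotype-by-diet groups and batch was fitted to all 45 mice and 15897 genes with limma 3.58.1 (R 4.3.3), with an intensity trend and Benjamini-Hochberg adjustment over all genes, called at 0.05. Since batch had been removed before deposit, a fit without a batch term may slightly understate the residual spread, whereas this fit holds the term. The fit was tested on simulated data. All samples are separate mice, and no file gives replicate pairs. The members and gene lists were chosen with earlier results of these data known. Genes were named by rule: up to 15 largest non-overlapping higher genes, up to 20 lower genes, the transgene genes, up to 4 called genes per list (otherwise the 1 with the smallest p) and up to 5 per other test. Further list members were named after their values were seen. Alternatives comprised no batch term, each batch alone, the compared groups alone, no trend, quantile normalization, a filter at the 25th percentile of mean value, a choroid plexus covariate, leaving out each mouse and, added after the data were seen, counting copied rows once (157 rows were exact copies). Promoter windows and coordinates came from RefSeq and the GRCm38 annotation, and figures were drawn with matplotlib 3.10.9. Reads of the human transgenes were not analysed here. Some members of the lists are not reported here by name.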

Additional observations from a re-analysis of the deposited data

Results flagged for a closer look

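In 180 groups of mice tested, 14 held a single mouse set apart from the others by Dixon's criterion, which chance meets in about 1 group in 20. In AwTw/STD mouse 6, Clec7a was lowest at 4.35 (next 5.30) and Fcgr2b lowest at 6.76 (next 7.08), while Laptm5 was highest at 10.11 (next 9.72), Pik3ap1 at 6.26 (next 5.98) and Ptpn6 at 7.40 (next 6.95). These flagged genes went in both directions. In A+T+/STD mouse 3, Arsi was lowest at 7.09 (next 7.51), Ccl3 at 6.34 (next 6.85) and Gpnmb at 8.16 (next 8.84), all still above every AwTw/STD mouse. In A+T+/STD mouse 2, Lyz2 was highest at 9.64 (next 9.47) and the thymidylate synthase gene Tyms highest at 6.28 (next 6.22). Scn3b was lowest at 11.18 in A+T+/STD mouse 1 (next 11.45). In AwTw/STD mouse 2, which also had the highest ribosomal protein level, Fcer1g was highest at 8.05 (next 7.68) and the ATP synthase gene Atp5c1 highest at 11.88 (next 11.57). The smooth muscle actin gene Acta2 was lowest at 6.64 in AwTw/STD mouse 4 (next 7.77). The cause of these values was not tested.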

How the results depend on the processing

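The 210 genes of A+T+/STD against AwTw/STD became 41 in batch 0 alone, 34 in batch 1 alone, 135 among genes above the 25th percentile of mean value and 119 with the choroid plexus covariate, and leaving out 1 mouse gave 108 (without A+T+/STD mouse 2) to 278 (without AwTw/STD mouse 2). The batch and leave-out fits hold fewer mice and the filter fewer genes. The 1 gene of A+T+/STD against A+Tw/STD became 0 in batch 0 alone, in batch 1 alone and with the filter, and 0 to 1 without 1 mouse. The 151 genes of A+T+/STD against AwT+/STD became 60 and 31 in the batches, 284 with the compared groups alone (54 of them lower), 94 with the filter and 93 to 167 without 1 mouse. The interaction of the transgenes and the diet difference gave 0 genes in limma under every alternative run. Mapt, at -0.01, changed sign in batch 1 (0.0477), with quantile normalization (0.0188), with the choroid plexus covariate (0.128) and without 1 mouse (-0.0832 to 0.0465), and so did Camk2a with that covariate (0.00344). Of 68 named genes past the threshold, 19 passed under every alternative, and 45 did when the fits on 1 batch were set aside. List medians moved beyond the spread between mice in 34 of 703 cases. The cause of these changes was otherwise not tested. No paired analysis was possible because the labels give no replicate numbers. The exact depth per mouse is unknown, so differences in genes with few reads may be understated.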
